A study of Mus musculus with 28 samples.

Results

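Neural stem-like lines induced with and without the factor M were compared, both made from embryonic fibroblasts of the Sox2-GFP reporter mouse. The comparison rests on 4 of the 28 libraries of the series, 2 of the KMF line (genotype K/M/eSox17FNV) and 2 of the KF line (genotype K/eSox17FNV), chosen by their labels alone. F is eSox17FNV, an engineered Sox17, and the labels do not spell out K and M. In published cocktails for induced neural stem cells these letters stand for Klf4 and c-Myc. In both lines the fibroblasts had received lentiviruses for M2rtTA, the doxycycline-controlled transactivator, and for doxycycline-inducible factors, and were kept with 1 μg/mL doxycycline for 18 days in serum-free medium with EGF and bFGF. Colonies were picked on day 20 and grown on Matrigel. There is 1 line a side, so the addition of M cannot be told apart from the choice of colony, and the labels give neither the passage nor the number of colonies behind a line. The p-values therefore measure only the spread between libraries within groups, pooled over all 14 groups, part of which may be technical. In the group of neural stem cells of 2.5-year mice the libraries are of passages 2 and 5, so this spread includes a passage difference.

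c-Myc is a transcription factor that binds E-box DNA as a dimer with Max and is best known for raising the genes of ribosome assembly, nucleotide synthesis and cell-cycle entry. Neural stem cells grown in EGF and bFGF divide continuously, and in the brain they also enter a resting state with astrocyte-like expression. Immediate early genes, such as Fos and Egr1, respond within minutes to growth factors, stress and handling, and HoxB genes carry positional identity along the body axis.

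The deposited values were normalised whole numbers, with nearly equal totals in every library (15563679 to 15571626), so the sequencing depth is unknown. Replicates lay close together for most genes: the median absolute log2 difference between both libraries was 0.09 in the KMF line and 0.09 in the KF line. At least 2-fold apart between replicates were 960 genes (5.9%) in KMF and 955 (5.87%) in KF. A gene was called when its adjusted p (Benjamini-Hochberg over 16275 tested genes) was under 0.05 in a limma fit of log2(value + 1). All log2 values below are differences on that scale, KMF minus KF unless stated, and they understate the change of genes with low values. Levels are the normalised values of single libraries. The range of the 16 libraries of the other 8 induced (miNSC) groups is given beside many of them. These groups came from embryonic fibroblasts of ICR or Sox2-GFP mice and from tail-tip or ear fibroblasts of 1.0-year Sox2-GFP mice.

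Markers of the labelled cell type were present in both lines. Sox2, the neural stem cell factor whose reporter the mice carry, stood at 2150 and 2372 in KF and 984 and 969 in KMF, and Nes, the intermediate filament nestin, at 8217 and 8658 in KF and 20143 and 21808 in KMF. Markers of other cells were low for some types and not for others. The 8 macrophage and leukocyte genes in the table summed to 21 to 30 in KF and to 34 and 215 in KMF. The sum of KMF replicate 2, 215, was above the 13 to 158 of the other miNSC. The 6 endothelial genes summed to 162 to 187 in KF and 298 to 333 in KMF (168 to 347 in the other miNSC), and the 1 epithelial gene was at 0 in all 4 libraries. The 30 fibroblast genes summed to 4934 to 5435 in KF and 6095 to 6304 in KMF, all inside the 2633 to 9126 of the other miNSC. The 6 ependymal and ciliated cell genes summed to 4272 to 4313 in KF, above the 1697 to 3034 of the other miNSC, and to 1734 to 1766 in KMF. The 13 neuron genes summed to 30286 to 30355 in KF and 23306 to 26058 in KMF (17289 to 34508 in the other miNSC), most of it from Map2, at 28063 in both KF libraries. The 10 smooth muscle and contractile genes summed to 4467 to 4481 in KF and 2844 to 2866 in KMF (2567 to 5181). The 8 pluripotency genes summed to 4451 to 4610 in KF, above the 172 to 990 of the other miNSC, and to 634 to 753 in KMF; this list holds Klf4 and Klf2, which made up most of the KF sum. Their part in the results below was not tested. In such bulk RNA, fewer cells of a kind and less RNA per cell cannot be told apart.

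Of the cocktail genes, Klf4 and Sox17 were lower in KMF and Myc did not pass the test. Myc stood at 3857 and 3733 in KF and 3666 and 3427 in KMF (-0.10 ± 0.30 (SE), adjusted p = 0.87). All 4 values lay above the highest of the other miNSC, 3000. Klf4 was lower in KMF, at 484 and 439 against 3366 and 3398 in KF (-2.87 ± 0.41 (SE), adjusted p = 4.23e-05). The KF values were above the whole range of the other miNSC (24 to 708) and the KMF values inside it. Sox17 was near absent in KMF (4 and 8) and stood at 115 and 166 in KF (-4.38 ± 0.42 (SE), adjusted p = 6.97e-07). Reads from the viruses and from the chromosomal genes are not separated in such values, so these levels do not show which copy was active. Sox2 was lower in KMF as well (-1.21 ± 0.11 (SE), adjusted p = 4.6e-07), with both KMF libraries under the lowest other miNSC library, 1091. Of the partners and antagonists of Myc, Max, its dimer partner, did not pass (0.02, adjusted p = 0.975), Mycl, Mxd1 and Mxi1 were lower (-2.19, -1.58 and -1.41) and Mxd3, which is expressed in dividing cells, was higher (3.27), a call lost without KMF replicate 2, KF replicate 1 or KF replicate 2. Mxd1 and Mxi1 encode antagonists that compete with Myc for Max.

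**Figure D1:**
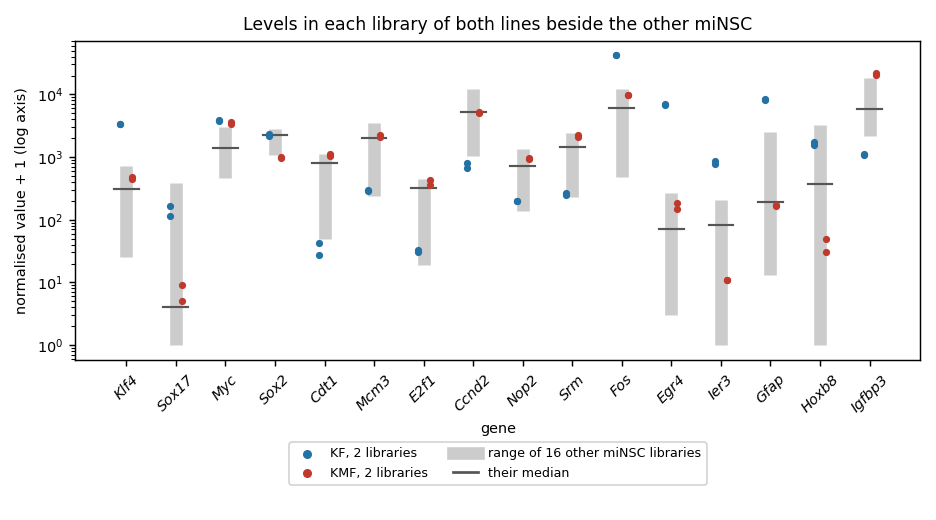
Normalised value plus 1 on a log axis for 16 genes, with a blue point for each KF library, a red point for each KMF library, a grey bar for the range of 16 other miNSC libraries and a dark line for their median. Fos, Egr4, Ier3, Gfap and Klf4 of the KF line lie above the grey bars and Cdt1, Ccnd2 and Igfbp3 of the KF line below them, while the KMF points of these genes lie inside the bars except for Igfbp3, which lies above.

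The lines differed widely. Of 16275 tested genes, 6358 (39.1%) were called, 3235 (19.9%) higher and 3123 (19.2%) lower in KMF, and 2765 (17.0%) were called with at least a 2-fold change. The median over all tested genes was -0.004. Among the described lists, most tested genes of ribosome assembly, DNA replication and the p53 response were called higher in the KMF line. Most immediate early genes, astrocyte genes, glial transporters and HoxB genes were called lower in it.

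**Figure D2:**
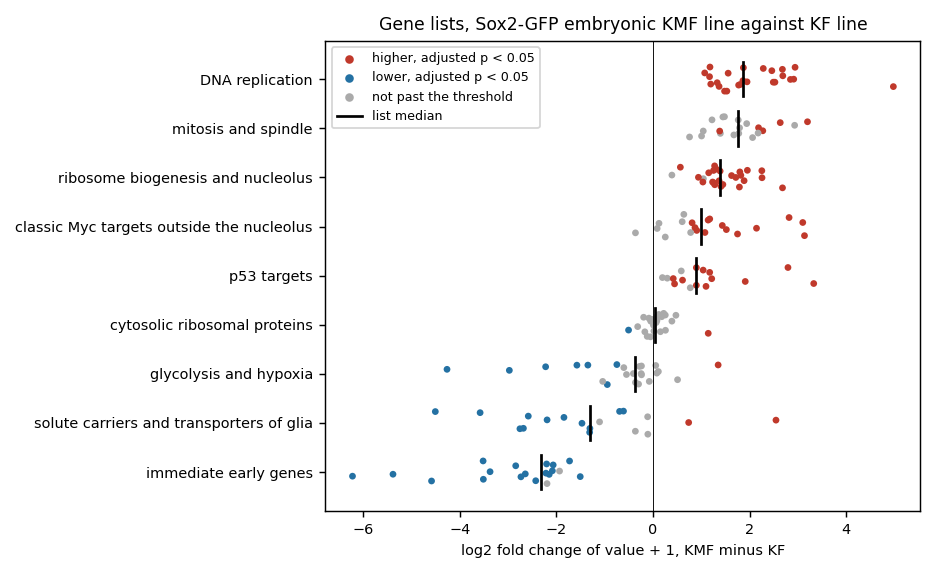
Log2 fold change (KMF minus KF, on the value + 1 scale) of each member of 9 gene lists, red where higher and blue where lower with adjusted p under 0.05, grey otherwise, with the list median as a black bar. The replication list lies wholly to the right of 0 and the immediate early list wholly to the left, while cytosolic ribosomal proteins gather around 0; Fosl1, at 0 in both KMF libraries, is not drawn.

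The KF line lay outside the span of the other lines more often than the KMF line. Over the tested genes, both KF libraries lay outside the range of the other 16 miNSC libraries for 2703 genes (16.6%), 1497 above it (9.20%) and 1206 below it (7.41%). Both KMF libraries did so for 1112 genes (6.83%), 658 above (4.04%) and 454 below (2.79%). Among the 6358 called genes, KF was outside and KMF inside that range for 1864, KMF outside and KF inside for 581, both outside for 152 and both inside for 3761. The KMF line differed from the BKF line of the same embryonic fibroblasts in 10.3% of genes, whereas the KF line differed from it in 37.7%. The KF line of ICR mice, which carries the same cocktail in another strain, differed from the KF line of Sox2-GFP in 44.7% of genes, the highest share among all 45 pairs of miNSC groups, and from the KMF line in 18.1%. The KF line was nearer than the KMF line to 2 tail-tip lines, the 4F line (B, K, M and F) at passage 18 (24.7% against 39.2%) and the KMF line (25.1% against 32.3%). For the other 4 groups the KF line differed in more genes than the KMF line, with 41.0% against 23.6% for ICR BKF, 38.0% against 22.2% for the ear 4F line, 42.5% against 20.2% for the tail-tip 4F line at passage 8 and 30.7% against 22.7% for tail-tip BKF. These comparisons share libraries and are given side by side.

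**Figure D3:**
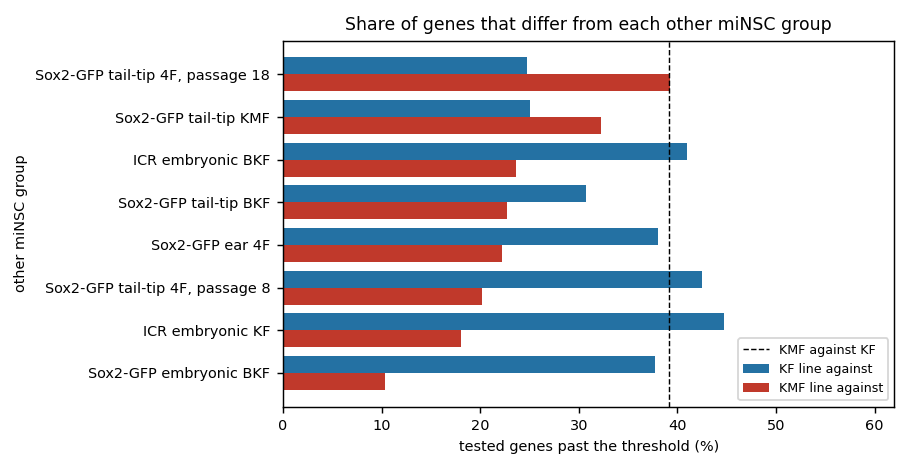
Share of tested genes past the threshold between the KF line (blue) or the KMF line (red) and each of the 8 other miNSC groups, with the share for KMF against KF as a dashed line. The blue bar is the longer one for 6 of the 8 groups, and the red bar for the tail-tip KMF line and the tail-tip 4F line at passage 18.

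Each library was projected over all tested genes on the axis from adult Sox2-GFP fibroblasts without factors (the mean of 3 groups, set to 0) to neural stem cells of 2.5-year Sox2-GFP mice (set to 1). The 3 groups were tail-tip fibroblasts of 1.0-year and of 2.5-year mice and 2.5-year fibroblasts labelled DF. On this axis the KF libraries lay at 0.89 and 0.886 and the KMF libraries at 0.811 and 0.813. The other miNSC libraries spanned 0.804 to 0.896 with a median of 0.859. Both lines were thus inside that span, KF near its upper and KMF near its lower end.

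Ribosome biogenesis genes were higher in the KMF line almost without exception. Of 26 tested, 24 were called higher and none lower, with a median of 1.38 beside -0.004 over all genes, and Npm1 and Fbl, higher in value (0.39 and 1.04), did not pass. Rrp12, which helps export ribosomal precursors, stood at 60 and 42 in KF and 313 and 342 in KMF (2.68 ± 0.33 (SE), adjusted p = 8.34e-06). Nop2, an rRNA methyltransferase, rose from 199 and 200 to 972 and 936 (2.25), and Nop56, a core protein of box C/D particles, from 714 and 864 to 2978 and 3110 (1.95). Gnl3, or nucleostemin, had the smallest adjusted p of the list, with 737 and 724 in KF and 2504 and 2547 in KMF (1.79 ± 0.08 (SE), adjusted p = 1.25e-10). Polr1b, a subunit of RNA polymerase I, was also higher (1.71). In none of the 26 genes did KF and KMF overlap, a pattern that 71.1% of all tested genes also showed. The KF values lay under the range of the other miNSC for 8 of the 26 genes and the KMF values above it for 0. Of 24 tested proteins of the cytosolic ribosome itself, 1 was called higher and 1 lower, with a median of 0.04.

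Genes known as direct targets of Myc outside the nucleolus pointed the same way, with 13 of 20 called higher, none lower and a median of 0.99. Srm, the spermidine synthase, stood at 262 and 244 in KF and 2286 and 2068 in KMF (3.10 ± 0.22 (SE), adjusted p = 4.11e-08). Odc1, which makes the precursor of spermidine, was at 4304 and 4633 in KF and 8894 and 9950 in KMF (1.08), above the highest other miNSC value of 4989 in both KMF libraries. Shmt1, of one-carbon metabolism, was higher by 3.14, Cad, the first enzyme of pyrimidine synthesis, by 2.14 and the translation factor Eif5a by 1.43. The chaperonin Hspd1 was higher too (1.75). The 7 members that did not pass included Ldha (-0.36), Cdk4 (0.12) and Nme1 (0.78).

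All 24 tested DNA replication genes were called higher in the KMF line, with a median of 1.87. Cdt1, the licensing factor that loads the MCM helicase, had the largest difference, from 42 and 26 in KF to 1099 and 1042 in KMF (4.97 ± 1.06 (SE), adjusted p = 0.00138). The helicase subunit Mcm3 stood at 282 and 298 in KF and 2106 and 2274 in KMF (2.91 ± 0.83 (SE), adjusted p = 0.0102), and Mcm5 and Mcm2 were higher by 2.84 and 2.49. Fen1 and Lig1, which finish Okazaki fragments, were higher by 2.94 and 2.69, and Rrm2, the regulated subunit of ribonucleotide reductase, by 2.46. The KMF values lay inside the range of the other miNSC for all 24 genes and the KF values under it for 3. Without KMF replicate 2 or KF replicate 1 only 15 of the 24 passed, and Mcm5, Lig1 and Rrm2 lost their call without any 1 of the 4 libraries.

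The cell-cycle machinery around replication shifted in the same direction. E2f1, an activator of replication genes, was at 32 and 30 in KF and 355 and 430 in KMF (3.61 ± 0.86 (SE), adjusted p = 0.00326). Ccnd2 and Ccnd1, the D-type cyclins of G1, were higher by 2.82 and 2.45, and Ccne1 by 2.42. The Cdk inhibitors did not move as a block: Cdkn1a (p21) was higher, 2264 and 2318 in KF against 5321 and 5321 in KMF (1.22), as was Cdkn2a (1.00), whereas Cdkn1b (p27) was lower (-0.55). Rb1, which restrains E2F, was lower as well (-1.07). In all, 10 of 18 G1 genes were higher and 3 lower.

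Mitosis and spindle genes had differences as large, with a median of 1.77 and all 20 members positive, but only 5 of 20 passed: Aurkb (3.20), Cdk1 (2.63), Ccna2 (2.27), Birc5 (2.18) and Mad2l1 (1.38). Mki67, the proliferation antigen, was at 1692 and 1763 in KF and 4928 and 4710 in KMF (1.48 ± 0.83 (SE), adjusted p = 0.181). When the neural stem cell libraries, taken at passages 2 and 5, were left out of the fit, all 20 passed, and without any 1 of the 4 KF and KMF libraries 0 of 20 passed. The KF values lay under the range of the other miNSC for 9 of the 20 genes.

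The promoters of these groups are shown because Myc and E2F factors bind short words in such sequences. RefSeq windows (250 bases before to 50 after a gene start, GRCm38.p6) were found for 21 of the 26 ribosome biogenesis genes and 20 of the 24 replication genes. In the windows below, the E-box CACGTG, which reads alike on both strands, is in capitals in the first 2, and TTTGGCGC or TTTCCCGC (or the reverse complement), words of the E2F type, in the last 2.
Nop2 (GRCm38.p6, chr6:125131633-125131932, plus strand): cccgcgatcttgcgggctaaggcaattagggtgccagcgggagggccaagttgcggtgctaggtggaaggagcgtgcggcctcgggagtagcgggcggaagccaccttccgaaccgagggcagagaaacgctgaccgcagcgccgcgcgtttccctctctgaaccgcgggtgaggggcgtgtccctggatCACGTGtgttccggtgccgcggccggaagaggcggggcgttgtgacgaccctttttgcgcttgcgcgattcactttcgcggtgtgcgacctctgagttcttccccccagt
Mybbp1a (GRCm38.p6, chr11:72441077-72441376, plus strand): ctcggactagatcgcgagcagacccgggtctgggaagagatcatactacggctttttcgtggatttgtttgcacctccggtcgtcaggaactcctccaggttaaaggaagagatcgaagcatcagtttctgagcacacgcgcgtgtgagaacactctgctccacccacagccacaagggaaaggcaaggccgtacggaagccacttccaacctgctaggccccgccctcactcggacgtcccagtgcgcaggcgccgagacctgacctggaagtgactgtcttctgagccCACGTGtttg
Mcm3 (GRCm38.p6, chr1:20820263-20820562, minus strand): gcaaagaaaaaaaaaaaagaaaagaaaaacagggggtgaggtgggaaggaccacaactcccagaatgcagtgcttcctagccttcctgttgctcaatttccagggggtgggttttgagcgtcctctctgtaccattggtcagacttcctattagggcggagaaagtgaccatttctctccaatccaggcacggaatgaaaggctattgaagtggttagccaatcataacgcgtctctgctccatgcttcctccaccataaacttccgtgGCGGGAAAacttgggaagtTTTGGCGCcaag
Cdt1 (GRCm38.p6, chr8:122567765-122568064, plus strand): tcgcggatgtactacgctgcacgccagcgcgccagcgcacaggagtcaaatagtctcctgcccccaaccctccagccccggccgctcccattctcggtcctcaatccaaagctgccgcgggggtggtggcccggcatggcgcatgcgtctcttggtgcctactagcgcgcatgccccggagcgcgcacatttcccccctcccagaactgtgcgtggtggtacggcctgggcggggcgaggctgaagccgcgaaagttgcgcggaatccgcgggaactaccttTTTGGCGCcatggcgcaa
The E-box stood in 5 of 23 windows (21.7%) of ribosome biogenesis genes, in 10.8% of windows of genes called higher, in 8.47% of those called lower and in 9.01% of windows of all tested genes. It also stood in 3 of 24 windows (12.5%) of replication genes and in 3 of 19 (15.8%) of immediate early genes, most of which were lower in KMF. The E2F-type words stood in 8 of 24 windows (33.3%) of replication genes, in 4.41% of windows of genes called higher, 1.97% of those called lower and 2.55% of all, in 3 of 23 (13%) of ribosome biogenesis genes and in 1 of 19 (5.26%) of immediate early genes. Both motifs were matched on either strand and do not overlap each other. The E2F-type words and the lists set beside them were chosen after seeing the data. A match describes letters in the window and not a bound site.

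Targets of p53 were higher in the KMF line, with 12 of 16 called higher, none lower and a median of 0.90. Aen, an apoptosis-enhancing nuclease, stood at 224 and 218 in KF and 1601 and 1476 in KMF (2.79 ± 0.21 (SE), adjusted p = 5.76e-08). Phlda3, an inhibitor of Akt, was higher by 1.91, Bax and Bbc3, of the apoptotic pathway, by 1.10 and 0.90, and Trp53 itself by 1.17. Gtse1 (3.33) is on this list too but is mainly known as a protein of G2 and mitosis. Both KMF libraries lay above the other miNSC for 2 of the 16 genes and both KF libraries below them for 4.

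Metabolic genes moved less evenly. Of 17 genes of the amino acid response and serine synthesis, 7 were called higher and 1 lower. That is a share of 47.1% beside the 39.1% of all tested genes, and fewer of them were higher without any 1 of the 4 KF and KMF libraries. The share was 39.1% for cholesterol and fatty acid genes, 30.0% for oxidative phosphorylation and 34.8% for glycolysis and hypoxia. Of 23 cholesterol and fatty acid genes, 9 were called higher and none lower (median 0.78), among them Fasn, the fatty acid synthase (1.28). Without the neural stem cell libraries 18 passed, and without 1 of the 4 KF and KMF libraries 2 to 4. Of 20 nuclear genes of oxidative phosphorylation, 6 were higher and none lower (median 0.33), and without the neural stem cell libraries 10 were higher. Of 23 glycolysis and hypoxia genes, 7 were lower and 1, Pkm, higher (median -0.36); 11 were lower without the neural stem cell libraries and 4 without KMF replicate 1, and the call of Pkm was lost without any 1 of KMF replicate 2, KF replicate 1 and KF replicate 2. Those that fell included Ndrg1, Bnip3, Pdk1 and Egln3, all induced by low oxygen, with Ndrg1 at 837 and 771 in KF and 44 and 38 in KMF (-4.26 ± 0.51 (SE), adjusted p = 6.78e-06). Vegfa, another hypoxia-induced gene and a growth factor for vessels, was lower, with 5162 and 5430 in KF and 941 and 1055 in KMF (-2.41). Glycolytic enzymes such as Gapdh (0.06), Aldoa (0.08) and Ldha (-0.36) did not pass.

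Immediate early genes were mostly lower in the KMF line. Of 20 tested, 18 were called lower in KMF and none higher, with a median of -2.32, Fosl1 was listed at 0 in both KMF libraries, and Fosb (-2.19) and Ier2 (-1.93) did not pass. Egr4, a zinc finger factor, stood at 6861 and 6988 in KF and 150 and 182 in KMF (-5.38 ± 0.56 (SE), adjusted p = 1.79e-06). Ier3, a stress and survival gene, was at 852 and 786 in KF and 10 and 10 in KMF (-6.22 ± 0.52 (SE), adjusted p = 1.67e-07). Klf2 (-4.58), Atf3 (-3.52) and the orphan receptor Nr4a1 (-3.51, from 28060 and 28060 to 2390 and 2534) were lower. Fos itself stood at 42158 and 42158 in KF and 9950 and 9950 in KMF (-2.08). Egr1 was at the table's highest value, 92914, in both KF libraries, so that its difference (-1.51) may be compressed, and its call was lost without any 1 of the 4 libraries. For 19 of the 20 genes both KF libraries lay above all 16 other miNSC libraries, and for none did the KMF libraries.

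Astrocyte genes and glial transporters were higher in the KF line. Gfap, the intermediate filament of astrocytes and of resting neural stem cells, stood at 8216 and 8417 in KF and 171 and 166 in KMF (-5.62 ± 0.44 (SE), adjusted p = 8.93e-08), with the highest other miNSC library at 2547. Apoe, a lipid carrier made by astrocytes, was at 9708 and 16127 in KF and 850 and 1080 in KMF (-3.71), the extracellular chaperone Clu at 307 and 355 in KF and 25 and 28 in KMF (-3.59), and Aldh1l1, a folate enzyme of astrocytes, at 239 and 307 in KF and 38 and 46 in KMF (-2.67). Over the list, 8 of 13 were lower in KMF and 2, Cd44 (2.62) and S100b (0.79), higher (median -0.76), and 5 were lower without KMF replicate 2 or KF replicate 1. The call of S100b was lost without any 1 of the 4 libraries. Cd44, a hyaluronan receptor, is also found on astrocyte precursors and many other cells.

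Of 18 transporters of glia, 12 were lower in KMF and 2 higher, with a median of -1.31. The glycine transporter Slc6a9 fell from 1750 and 1829 to 132 and 168 (-3.58 ± 0.23 (SE), adjusted p = 1.12e-08), and the GABA transporter Slc6a11 was lower (-2.58). Abca1, which exports cholesterol, was lower (-2.75), as was the sodium pump subunit Atp1b2 (-1.47). Slc1a3, the glutamate transporter GLAST of neural stem cells, did not pass (-0.37). The taurine transporter Slc6a6 was higher in KMF (2.55), as was Slc38a3 (0.74). Genes of the oligodendrocyte lineage were mixed, with 5 of 11 lower and 2 higher (63.6% called, beside 39.1% of all tested genes). Gpr17, a receptor of committed precursors, and Pdgfra, the precursor's PDGF receptor, were lower (-6.40 and -4.02). Cspg4, the proteoglycan NG2 of the same precursors, was higher (3.81). Fewer lineage genes were higher without KMF replicate 1, KMF replicate 2 or KF replicate 1.

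Within the neural stem and progenitor list, 9 of 30 genes were lower in KMF and 4 higher (median -0.26), so that 43.3% were called beside 39.1% of all tested genes. Ttyh1, a membrane protein of neural stem cells, fell from 24590 and 24590 to 2855 and 2784 (-3.12 ± 0.48 (SE), adjusted p = 9.23e-05), and the RNA-binding protein Msi1 from 1620 and 1683 to 490 and 531 (-1.69). Sox9, a glial and stem cell factor, was at 3253 and 3336 in KF and 771 and 654 in KMF (-2.21), and Sox4 at 24590 and 28063 in KF and 5163 and 5163 in KMF (-2.35). Of 12 Sox genes 6 were lower and 1, Sox12, higher (0.67). Nestin went the other way, from 8217 and 8658 to 20143 and 21808 (1.31).

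Ligands and targets of the Notch and Wnt pathways were among the genes higher in the KF line. The Notch ligand Dll3 stood at 1244 and 1264 in KF and 100 and 149 in KMF (-3.35), and its relative Dll1 at 3772 and 3772 in KF and 1132 and 1140 in KMF (-1.73). The Notch targets Nrarp and Hey1 were lower (-4.37 and -2.14), and the ligand Jag1 was higher (1.51), so that 7 of 17 Notch genes were lower and 3 higher (median -0.59). The call of Hey1 was lost without any 1 of the 4 libraries. Of 17 Wnt genes 7 were lower and 2 higher (median -0.41), with fewer higher without KMF replicate 1 or KF replicate 2. Called were 58.8% of the Notch genes and 52.9% of the Wnt genes, beside 39.1% of all tested genes. Wnt5b was lower, with 529 and 542 in KF and 6 and 11 in KMF (-5.87 ± 0.44 (SE), adjusted p = 6.38e-08), while Wnt7b and Wnt7a were lower too (-2.32 and -2.02). The secreted Wnt modulator Sfrp2 was higher, 10 and 7 in KF against 98 and 97 in KMF (3.39). In the hedgehog pathway the ciliary genes Evc and Evc2 and the receptor Ptch1 were lower (-3.31, -1.57 and -0.99), and the factors Gli2 and Gli3 higher (2.13 and 1.05).

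Hox genes split by cluster. All 9 tested HoxB genes, which lie together on chromosome 11 (96194316 to 96354012, GRCm38), were called lower in KMF. Hoxb8 stood at 1737 and 1580 in KF and 49 and 30 in KMF (-5.40 ± 0.25 (SE), adjusted p = 3.47e-10). Hoxb5 was at 148 and 122 in KF and 7 and 7 in KMF (-4.08) and Hoxb3 at 842 and 860 in KF and 178 and 201 in KMF (-2.16), whereas Hoxb6 (26 and 30 in KF) and Hoxb9 (14 and 23) were listed at 0 in both KMF libraries. None of the 9 HoxA genes was called, and 1 was lower without KMF replicate 2. Of the HoxC genes 5 of 9 were called higher (3 without KF replicate 2), but at low levels: Hoxc4 was at 10 and 6 in KF and 52 and 44 in KMF and the other 4 were listed at 0 in KF and at no more than 16 in KMF. Hoxd8 and Hoxd9, 2 of 3 tested HoxD genes, were lower (-1.49 and -2.22). The KF values lay inside the range of the other miNSC for all 9 HoxB genes, a wide range that for Hoxb8 ran from 0 to 3303.

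**Figure D4:**
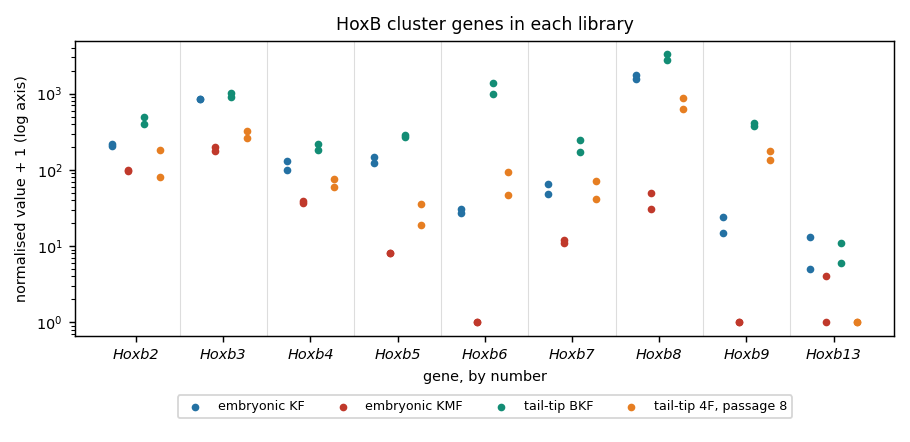
Normalised value plus 1 on a log axis for the 9 tested HoxB genes, 2 points for each of the embryonic KF (blue) and KMF (red) lines and the tail-tip BKF (green) and 4F passage 8 (orange) lines. In each gene the red points lie below the blue ones and the orange below the green.

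Other patterning factors also differed. Tfap2a, of neural crest and surface ectoderm, stood at 7 and 5 in KF and 321 and 274 in KMF (5.43 ± 0.44 (SE), adjusted p = 1.35e-07). Pax7, a dorsal neural tube and crest factor, was at 11 and 3 in KF and 256 and 207 in KMF (5.06), and its relative Pax3 was listed at 0 in KF and at 84 and 94 in KMF. In contrast Irx3, of the ventral and intermediate neural tube, was lower (358 and 338 in KF against 86 and 90 in KMF, -1.97), and Nkx6-1, a ventral factor, was at 49 and 70 in KF and listed at 0 in KMF. Among mesenchymal factors 8 of 24 were higher (5 without KMF replicate 1 or KF replicate 2) and 4 lower, with Tbx18 at 202 and 170 in KF and 696 and 701 in KMF (1.91) and Twist1 at 167 and 174 in KF and 427 and 446 in KMF (1.35), and Foxc1 lower (-1.12).

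Secreted growth regulators changed on both sides. Of 7 IGF binding proteins, 4 were higher in KMF and 1 lower (median 2.48), with 2 lower without KMF replicate 2. Igfbp3 stood at 1122 and 1096 in KF and 21805 and 20138 in KMF (4.24 ± 0.29 (SE), adjusted p = 2.02e-08), above the highest other miNSC value of 17981. Igfbp7, a secreted protein of vessels and senescent cells, was at 4 and 8 in KF and 243 and 245 in KMF (5.19), Igfbp4 and Igfbp2 were higher by 2.60 and 2.48, and Igfbp5 was lower (-1.70). Of 33 growth factor and receptor genes, 10 were higher and 8 lower (median 0.00), so that 54.5% were called beside 39.1% of all tested genes. Fewer were lower without KMF replicate 1, KMF replicate 2 or KF replicate 1. Erbb4, a neuregulin receptor, was at 2855 and 2834 in KF and 337 and 326 in KMF (-3.10), and the EGF receptor Egfr was lower (-0.47), a call lost without any 1 of the 4 libraries. Pdgfa, the ligand of Pdgfra, was higher, 37 and 34 in KF against 402 and 317 in KMF (3.30), as was Fgf1 (2.21). Dusp6, a phosphatase induced by ERK signalling, was at 2854 and 2854 in KF and 8216 and 8216 in KMF (1.53), whereas Fos and Egr1, which ERK also induces, were lower.

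Matrix genes changed in both directions, while most called adhesion genes were lower in KMF. Of 29 matrix proteins and proteoglycans of neural cells, 12 were higher in KMF and 5 lower (median 0.29). Called were 58.6% of them, beside 39.1% of all tested genes, and fewer were lower without KMF replicate 1 or KF replicate 1. Tnc, tenascin-C of the stem cell niche, stood at 1494 and 1548 in KF and 11648 and 9950 in KMF (2.82 ± 0.62 (SE), adjusted p = 0.00186), and the basement membrane genes Lama4, Col4a1 and Lamb1 were higher by 3.84, 2.29 and 1.54. Tnr, tenascin-R of mature glia, was lower (1665 and 1511 in KF against 176 and 158 in KMF, -3.24). Of 24 adhesion genes, 10 were lower and 2 higher (median -0.79), among them the laminin receptor subunit Itga7 at 1042 and 1182 in KF and 26 and 24 in KMF (-5.42), Itgb8 (-2.08) and the neuronal adhesion molecule Nrcam (-2.90). Of 55 clustered protocadherins 13 were lower and 4 higher, so that 30.9% were called beside 39.1% of all tested genes. Both KF libraries lay above all other miNSC libraries for 15 of the 55.

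By size alone, the 15 largest rises and 15 largest falls with no overlap between lines were largely other genes. Calca, which encodes calcitonin and CGRP, had the largest rise, from 3 and 1 to 1872 and 1882 (9.38 ± 0.61 (SE), adjusted p = 1.39e-08). Rab26, of vesicle traffic, stood at 0 and 1 in KF and 341 and 312 in KMF (7.85), Pcolce, an enhancer of procollagen cleavage, at 11 and 12 in KF and 1024 and 1062 in KMF (6.39), and Aebp1, a collagen-binding protein, at 18 and 20 in KF and 876 and 852 in KMF (5.44). Galnt18, a mucin-type glycosyltransferase, was higher by 6.31, the muscarinic receptor Chrm3 by 5.40, the Nogo receptor relative Rtn4rl1 by 6.04, Il7 by 6.48 and Zfp804b by 6.39. Both KMF libraries of Aebp1, Rab26, Chrm3, Pcolce, Rtn4rl1, Tfap2a and Cldn34c1 lay above all other miNSC libraries.

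The largest falls were led by Slc16a3, a lactate exporter, at 291 and 318 in KF and 0 and 1 in KMF (-7.75 ± 0.91 (SE), adjusted p = 5.97e-06). Ntsr2, a neurotensin receptor of astrocytes, fell from 1007 and 925 to 7 and 4 (-7.26), and Cd109, a TGF-beta co-receptor, from 10340 and 9950 to 94 and 104 (-6.67). In KMF Cd109, Arvcf and Plcd1 lay under the lowest other miNSC library, 562, 158 and 52. Arvcf, a catenin of cell junctions, was lower (-6.04), as were the phospholipase Plcd1 (-6.54), the protocadherin Pcdhga10 (-6.96), the basement membrane collagen Col4a6 (-6.15) and the neuropeptide precursor Vgf (-5.81). Rtl8a was at 753 and 659 in KF and 5 and 5 in KMF (-6.88). The orphan receptor Nr4a3, like Nr4a1 an immediate early gene, fell from 5430 and 5162 to 94 and 94 (-5.80).

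Part of the largest differences rests on values that jump. For 368 tested genes no miNSC library had a value between 10 and 300, while some stood at 10 or less and others at 300 or more. Of these, 275 lay in the lowest of 10 equal bins of transcript GC content (a fraction of 0.397 or less) and 354 in the lowest 2 bins. They included Kcnt2, Cldn34c1, Olfr618, Rbm8a2 and Scn7a among the 15 rises and Vmn2r87 among the 15 falls, so the sizes given for these genes (7.94, 9.09, 8.80, 8.50, 5.49 and -5.89) depend on such steps. The calls of Olfr618, Rbm8a2 and Vmn2r87, like that of Il7 above, were lost without any 1 of the 4 libraries. Scn7a was at 0 and 348 in its KF libraries. The 10 genes with the highest level on one side and 0 in both libraries of the other, Sim1, Tceal1, Tex16, Hpgd, Ermn, Iigp1, Slco1a4, Zfp990, Mei4 and Klhl4, all had such jumps. Tlr4, a receptor of innate immunity without a jump, was chosen after its values were seen: it was listed at 0 in both KF libraries and stood at 337 and 326 in KMF, with the other miNSC between 92 and 298.

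A second pair of Sox2-GFP groups differs by M in its labels and shares no library with the embryonic pair: the tail-tip 4F line at passage 8 and the tail-tip BKF line, from 1.0-year mice. It also has 1 line a side, and the labels give no passage for its BKF line. M can therefore not be told apart there from the line or its passage. In the tail-tip pair 4240 genes (26.1%) were called, 2136 (13.1%) higher and 2104 (12.9%) lower in 4F. Between passages 18 and 8 of the 4F line 5716 genes (35.1%) were called. Called in both pairs were 2528 genes, 39.8% of the embryonic and 59.6% of the tail-tip calls, 1974 of them in the same direction and 554 in opposite directions. The difference between both comparisons, tested as an interaction, passed for 3735 genes (22.9%), and for 6820 when the tail-tip 4F line was taken at passage 18.

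Ribosome biogenesis genes were higher in both pairs. In the tail tip 23 of 26 were called higher and none lower (median 1.17), the same 23 that were called in the embryonic pair, and the interaction passed for 3 (Gnl3, Nop2 and Ebna1bp2). Rrp12 stood at 82 and 68 in tail-tip BKF and 509 and 406 in 4F (2.59). Direct Myc targets outside the nucleolus were less uniform in the tail tip, with 4 of 20 called higher and 2 lower (median 0.525). For 7 of these targets the interaction passed, each time more positive in the embryonic pair. HoxB genes were likewise lower in both pairs, 9 of 9 in each, with Hoxb6 at 1002 and 1383 in tail-tip BKF and 94 and 46 in 4F (-4.14), and the interaction passed for Hoxb8 and Hoxb9. Gfap was lower in both as well, though from much lower levels in the tail tip (154 and 180 against 20 and 12, -3.34). Of the 18 glial transporters 11 were lower in the tail tip and 2 higher.

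DNA replication and immediate early genes differed more between the pairs. None of the 24 replication genes was called in the tail-tip pair (median 0.28). The interaction passed for 8 of them, beside 22.9% of all tested genes. Among the 8 was Cdt1, with 757 and 757 in tail-tip BKF and 928 and 802 in 4F (interaction 4.79). Of 20 mitosis and spindle genes none was called in the tail-tip pair (median -0.34), and the interaction passed for 0. Of the immediate early genes 5 were lower and 1, Klf2, higher in the tail tip (median -0.43), and the interaction passed for 11 of 20, all more negative in the embryonic pair. The p53 targets were 2 higher and 2 lower in the tail tip, with 10 of 16 interactions passing. Glycolysis and hypoxia genes were lower in the tail tip in 19 of 23 (median -1.89), and 11 interactions passed, all more positive in the embryonic pair. Ndrg1 was lower in both, in the tail tip at 878 and 980 in BKF and 38 and 117 in 4F (-3.78). Both 4F libraries differed in Fos (1625 and 4412), so single immediate early values of that line vary between replicates.

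**Figure D5:**
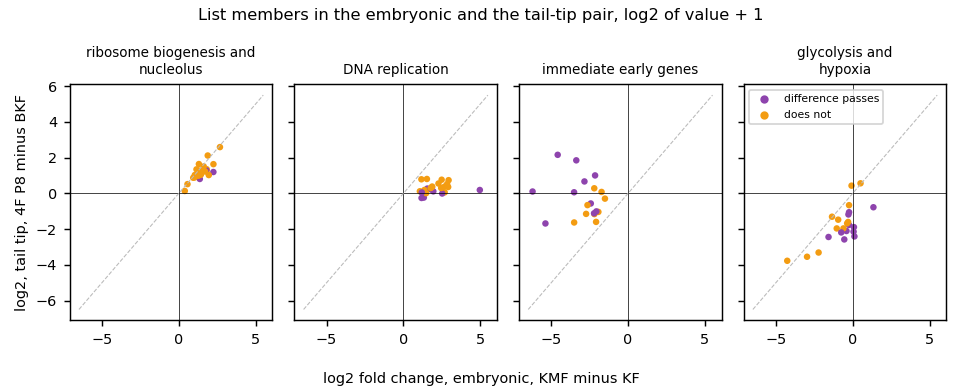
Log2 fold change of list members in the embryonic pair (KMF minus KF, horizontal) and in the tail-tip pair (4F passage 8 minus BKF, vertical), purple where the interaction had an adjusted p under 0.05 and orange otherwise, with equal change on the dashed line. Ribosome biogenesis genes lie near the dashed line, replication genes along the horizontal axis and most glycolysis and hypoxia genes below the dashed line; Fosl1, at 0 in 2 of the lines, is not drawn.

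By chromosome, medians lay between -0.06 and 0.03. The share of called genes was highest on chromosomes 4 (47.8%) and 11 (46.4%) and lowest on Y (3.21%). Y-linked transcripts were found in both lines but not equally: Eif2s3y, a translation factor subunit, stood at 2626 and 2640 in KF and 556 and 494 in KMF (-2.33), the demethylase Kdm5d at 1994 and 2140 in KF and 481 and 488 in KMF (-2.09) and Ddx3y at 3552 and 3528 in KF and 2190 and 2203 in KMF (-0.69). Uty did not pass (-0.34), and Xist was low in both lines (204 and 212 in KF, 216 and 178 in KMF).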

How the data were processed

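Messenger RNA of 28 mouse libraries in 14 groups of 2 was sequenced. The authors deposited 1 score per gene and library, whole numbers that are normalised in a way not given in the sources used here. The submitters' processing notes name RSEM, Bowtie2 2.0 and the mm10 build but do not say how each was used. The table held 17295 genes, and exactly 10 stood at the same highest value, 92914, in each library. Such ties compress folds of abundant genes, and no depth or detection limit can be derived.

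Values were changed to log2(value + 1). The 16275 genes that averaged 10 or more across the libraries were fitted with limma 3.58.1 (R 4.3.3), 1 term per group over all 28 libraries, with a variance trend, contrasts of group means and Benjamini-Hochberg adjustment at 0.05. The difference between both pairs was an interaction in that fit. The fit was also run on simulated data in which a small set of genes was changed in KMF and the groups were otherwise alike. That is a simpler setting than these data, so the run does not show how the fit performs on them. Same-numbered replicates did not deviate together (correlation -0.006), so no pairing was used. Genes named by size were the 15 largest called rises and falls with no overlap, a mean of at least 100 in a line, a value above 0 in each line and a standard name, plus the 10 highest genes at 0 in one line; list members were named with their lists, and some genes that meet these rules are counted but not reported here by name. The members and lists were chosen with earlier results of these data known. Alternatives covered pseudocounts, filters, libraries fitted, scaling, prior and replicates, and 2 more were chosen after seeing the data. Coordinates and transcript GC content came from GENCODE M21 (GRCm38, the same assembly as mm10), and promoters from RefSeq. Summaries used Python 3.11.15, pandas 2.3.3 and numpy 2.4.6.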

Additional observations from a re-analysis of the deposited data

Results flagged for a closer look

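Of the 30 genes named by size, 25 changed differently in the embryonic pair than in the tail-tip pair, as an interaction in the limma fit with adjusted p under 0.05; over all tested genes 22.9% did so. The values below are embryonic KMF minus KF less tail-tip 4F passage 8 minus BKF, in log2 of value + 1. The genes were chosen for large embryonic differences, so the size of the interaction is not independent of the choice. The groups held 2 libraries each, too few to look for single libraries that stand apart.

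In 4 genes both pairs passed the test with opposite signs: Kcnt2 (16.25), Nr4a3 (-8.82), Rtn4rl1 (8.44) and Tfap2a (8.47). Kcnt2 has values that jump between 10 or less and 300 or more across the miNSC, standing at 600 and 664 in tail-tip BKF and 1 and 1 in 4F. Among genes lower in KMF the interaction was negative for genes that include Rtl8a (-6.99), Cd109 (-6.73), Vgf (-6.66), Arvcf (-6.46), Ier3 (-6.32), Slc16a3 (-6.11), Pcdhga10 (-6.00), Col4a6 (-5.25), Ntsr2 (-4.94), Gpr17 (-4.77), Wnt5b (-4.71) and Plcd1 (-4.67). Among genes higher in KMF it was positive for Chrm3 (4.02), Aebp1 (4.95), Pcolce (5.21), Calca (5.49), Rab26 (5.69), Galnt18 (6.75), Zfp804b (6.89) and Cldn34c1 (9.67), of which Cldn34c1 also has jumping values.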

How the results depend on the processing

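All 18 alternatives gave a count of calls within 1.5 times the 6358 reported, from 4835 to 7576. Pseudocounts of 10 and 0.5 gave 6555 and 6306, no filter on low values 6431, a mean of at least 50 over the 4 libraries 5823, and the 4 libraries alone 7576. The 20 miNSC libraries gave 7334, the fit without neural stem cell libraries 7485, a robust prior 6332, equal medians 6358 and quantile normalisation 6388. The counts higher and lower moved with them, and leaving out 1 of the 4 libraries gave 4835 to 4884 calls, 2460 to 2466 higher and 2371 to 2423 lower. Chosen after seeing the data, leaving out the 40 genes at the highest value gave 6338 calls and leaving out the 368 genes with jumping values 6348. The interaction count of 3735 became 6820 when the tail-tip 4F line was taken at passage 18, and 2722 to 2946 without 1 of the 4 libraries; the cause of the first was not tested. The count between the KF lines of Sox2-GFP and ICR was 5734 to 7127 without 1 library.

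Replicate numbers were not used as a block because same-numbered libraries did not deviate together. With the replicate block over 26 libraries, those without the neural stem cells, 7463 genes were called, beside 7485 without the block. With the block over the 4 libraries 6020 were called, beside 7576 without it. Of the 7463 and 6020 genes, 6328 and 4770 were among the 6358.

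No gene named by size changed direction under any of the 18 alternatives, and of 534 such values 22 lost the call. Over all list members and named genes no called gene changed direction, 509 values lost and 666 gained a call. Counts of single lists moved by over 1.5 times in 225 cases over the settings; without the neural stem cell libraries they did so for 17 counts, among them mitosis (5 to 20), cholesterol and fatty acid (9 to 18) and glycolysis and hypoxia genes (7 to 11 lower). In the 4 libraries alone 7 neural stem genes were higher and 16 lower, and 24 protocadherins lower. Replication genes numbered 15 to 18 without 1 library. Equal values shared by many genes and unknown depth limit how finely large and low values can be compared.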
